A study of Rattus norvegicus with 16 samples.

Results

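A set of 10 genes that respond to low oxygen or carry glucose through glycolysis were followed in the renal outer medulla of rats given 2-amino-4-nitrophenol (ANP). They were chosen by name, with earlier results of these data known: *Egln3*, *Bnip3*, *Vegfa*, *Adm*, *Slc2a1*, *Hk1*, *Hk2*, *Pfkfb3*, *Pgk1* and *Ldha*. All 10 had a named probe on the array, among 15284 genes with one, and 22 probes in all stood for them. All 10 also passed the filter on dim probes, which left 11849 genes for testing. Of the 10 genes, *Bnip3* was 1.92-fold and *Egln3* 2.00-fold higher in ANP than in vehicle arrays of day 28, where slide and treatment coincide. The *Egln3* call was close to the threshold (limma adjusted p = 0.0441) and was lost in some fits that left out 1 array. Its vehicle mean was -1.25 at day 28 and -0.59 at day 14 (log2 level). None of the 10 passed the test at day 14, and the 8 genes other than *Bnip3* and *Egln3* did not pass on either day. After 1 day the pooled ANP sample had 3.32-fold more *Adm* and 2.13-fold more *Hk2* RNA than the vehicle pool, with 1 array each and so without a test. The *Hk2* probe was dim, and with another background correction its ratio was below 2-fold.

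Male Crl:CD Sprague-Dawley rats, 5 weeks old when dosing began, received ANP by gavage at 750 mg/kg/day in corn oil, and vehicle control rats (VC) received corn oil. ANP is an aromatic compound with amino and nitro groups that is used in making dyes. ANP and VC groups of days 14 and 28 had 3 arrays each, 1 animal per array. Those of days 1 and 7 had 1 array each, hybridised with RNA pooled from 3 animals.

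Cells measure oxygen through the hypoxia-inducible factors (HIF). With oxygen present, prolyl hydroxylases of the EGLN family mark the HIF alpha subunits for destruction by the von Hippel-Lindau protein. When oxygen runs short the subunits persist, pair with ARNT, bind the core sequences ACGTG or GCGTG and raise genes for glucose uptake, glycolysis, vessel growth and mitochondrial removal. The outer medulla is known for low oxygen tension beside high transport work in the thick ascending limb and the straight proximal tubule. Several of these genes also answer to signals other than oxygen, so their level is no direct reading of it.

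Signal was measured on 1-colour Agilent arrays, and a level here is the log2 of the processed signal minus the 75th percentile of its array, so that 1 unit is a 2-fold difference. Levels of different genes come from different probes and are not set against each other. Between 64.75% and 69.6% of probes were well above background per array, the 75th percentile lay between 810 and 1324 signal units, and r between replicates over all genes was 0.987 to 0.993. Precision is limited by how few arrays each group has. All adjusted p-values are from limma with Benjamini-Hochberg adjustment over the 11849 genes, and a gene passed at an adjusted p under 0.05. Slide and group were not balanced: the VC arrays of day 14 shared a slide with ANP replicate 1 of that day, ANP replicates 2 and 3 of day 14 lay with the VC arrays of day 28, the ANP arrays of day 28 had a slide of their own, and the 4 pools shared the last one. At day 28 slide and treatment therefore cannot be told apart. In whole tissue, fewer cells of a type and less RNA per cell cannot be told apart either.

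The tissue was checked against marker genes by a low bar, since signal well above background on 1 of 12 arrays met it. Of the macrophage list, *Itgam* was well above background on only 2 of the 12 and *Cd163* on 5. No gene of the straight proximal tubule, thick ascending limb, thin limb, collecting duct, endothelial, macrophage or red cell precursor lists with a named probe was dim on all 12 arrays of days 14 and 28, and none was of the cortical lists. Markers of cortex were thus present: the summed linear signal of 6 glomerular genes, relative to the 75th percentile, was 16 to 17.3 in ANP and 26.0 to 34.5 in VC arrays of day 28, and 10.6 to 13.1 in ANP and 13.1 to 15.5 in VC arrays of day 14. The 7 convoluted proximal tubule genes summed to 319 to 377 in ANP and 445 to 584 in VC arrays of day 28, and to 119 to 182 in ANP and 116 to 311 in VC arrays of day 14. Of these 7 genes only *Slc22a12* passed at day 28, and it was higher in ANP (log2 ratio 0.85 ± 0.19, limma adjusted p = 0.0300). It was also the only one of the 7 with a ratio above 0 there. The glomerular and convoluted tubule sums were both higher at day 28 than at day 14 in ANP arrays and in VC arrays. Their part in the results below was not tested.

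At day 14, 0 of the 10 genes passed (limma), against 0.481% of all genes, and 2 of the 10 had an unadjusted p under 0.05, against 13.4% of all genes. ANP and VC arrays did not overlap for 2 of the 10, *Bnip3* and *Ldha*, against 18.1% of all genes. The median log2 ratio of the 10 was 0.20 and that of all genes 0.01. At day 28, 2 of the 10 passed, against 7.11% of all genes, of which 4.47% were higher and 2.63% lower. Groups did not overlap for 3 of the 10 (*Bnip3*, *Egln3* and *Adm*), against 32.9% of all genes, and the median log2 ratio was 0.03 beside 0.02 for all genes. Ratios were above 0 for 8 of 10 genes at day 14 and for 6 of 10 at day 28.

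**Figure D1:**
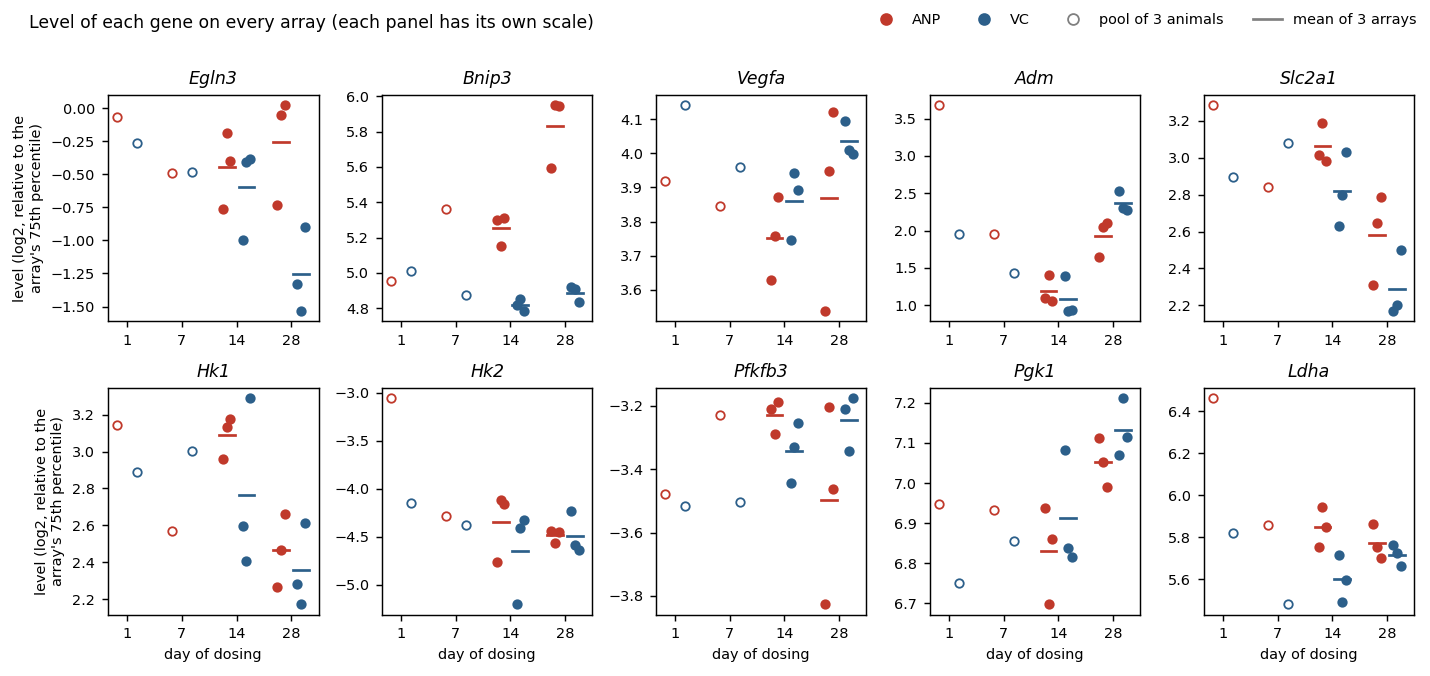
Level of each of the 10 genes on every array (vertical axis, log2 relative to the 75th percentile of the array, a scale per panel) by day of dosing, ANP in red and VC in blue. Filled points are single animals, open points pools of 3 animals and lines means of 3 arrays. *Bnip3* lies above VC in all 6 ANP arrays of days 14 and 28, and *Adm* stands highest in the ANP pool of day 1, at 3.68.

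*Bnip3* encodes a mitochondrial outer membrane protein that promotes the removal of mitochondria by autophagy and is a known HIF target. Its level at day 28 was 5.60, 5.95 and 5.94 in ANP arrays, against 4.92, 4.91 and 4.83 in VC arrays. The day 14 levels were 5.30, 5.15 and 5.31 in ANP arrays and 4.82, 4.85 and 4.78 in VC arrays. Every ANP animal lay above every VC animal on both days, and the ANP animals of day 28 lay above those of day 14. The VC arrays of both days stayed within a narrow band.

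*Bnip3* averaged 5.83 ± 0.20 in ANP and 4.89 ± 0.05 in VC arrays at day 28 (SD, n = 3 each), a log2 ratio of 0.94 ± 0.10 (SE; 95% interval 0.72 to 1.17; limma adjusted p = 0.0030). Its day 14 mean was 5.25 ± 0.09 in ANP and 4.82 ± 0.04 in VC arrays (SD, n = 3 each), a log2 ratio of 0.44 ± 0.10 that did not pass (SE; 95% interval 0.21 to 0.66; limma adjusted p = 0.101). Averaged over both days the log2 ratio was 0.69 ± 0.07, or 1.61-fold (limma adjusted p = 0.00091, against 10.2% of all genes passing), the only one of the 10 genes to pass there. The ratio was larger at day 28 than at day 14 by 0.51 ± 0.14, which did not pass (limma adjusted p = 0.378). In that comparison of days 0 of the 10 and 0 of all genes passed (limma), while 3 of the 10, *Bnip3*, *Egln3* and *Adm*, and 9.27% of all genes had an unadjusted p under 0.05. The VC arrays of day 28 and day 14 differed by 0.07 ± 0.10 (limma adjusted p = 0.715).

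In the pools *Bnip3* stood at 4.96 in ANP and 5.01 in VC at day 1, and at 5.36 in ANP and 4.87 in VC at day 7. The pools were thus alike after the first day and 1.41-fold apart after a week, a ratio higher than in 92.8% of genes at day 7. The order of the ANP arrays was day 1 lowest, days 7 and 14 between and day 28 highest. A second *Bnip3* probe gave log2 ratios of 0.91 ± 0.10 at day 28, 0.50 ± 0.10 at day 14, 0.58 at day 7 and -0.03 at day 1, close to those of the first. In a fit of every probe on its own, where 6.17% of probes passed at day 28, both *Bnip3* probes passed (limma adjusted p = 0.00445 for each). At day 14, where 0.167% of probes passed, neither did (limma adjusted p = 0.136 and 0.0958).

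The stretch of 250 bases before the start of *Bnip3* is shown because it holds 4 copies of the core hypoxia response element, 2 of them on opposite strands of one CACGTG. The sequence is RefSeq's, of the GRCr8 assembly, chr1:203154963-203155212, minus strand, with 72.4% G and C; capitals mark ACGTG or GCGTG on either strand (reversed, CACGT or CACGC).
Bnip3: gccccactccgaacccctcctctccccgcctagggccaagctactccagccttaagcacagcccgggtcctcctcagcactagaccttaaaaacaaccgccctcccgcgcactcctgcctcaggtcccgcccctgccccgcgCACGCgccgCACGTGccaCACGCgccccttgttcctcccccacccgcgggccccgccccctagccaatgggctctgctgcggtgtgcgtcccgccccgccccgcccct
The first base of the CACGTG, an E-box letter pattern that contains ACGTG on both strands, lies 99 bases before the start. A pattern in capitals is a match of letters and shows no binding.

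*Egln3* encodes a prolyl hydroxylase that marks HIF alpha and is itself raised by HIF, which makes it both brake and readout of the pathway. Its level at day 28 was -0.73, -0.05 and 0.02 in ANP arrays, against -1.33, -1.54 and -0.90 in VC arrays. The day 14 arrays gave -0.76, -0.18 and -0.40 in ANP arrays and -0.996, -0.41 and -0.38 in VC arrays. The groups did not overlap at day 28, though ANP replicate 1 lay near the highest VC array, and they overlapped at day 14. The VC mean of day 28 was the lowest of the 8 group values, while ANP replicates 2 and 3 of day 28 stood only just above the ANP pool of day 1.

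*Egln3* averaged -0.25 ± 0.42 in ANP and -1.25 ± 0.32 in VC arrays at day 28 (SD, n = 3 each), a log2 ratio of 1.00 ± 0.26 (SE; 95% interval 0.43 to 1.57; limma adjusted p = 0.0441). The call was close to the threshold. It was lost without ANP replicate 2 (limma adjusted p = 0.121), ANP replicate 3 (0.0902), VC replicate 1 (0.128) or VC replicate 2 (0.149) of that day, with log2 ratios from 0.86 to 1.24 over all 6 such fits. At day 14 the log2 ratio was 0.15 ± 0.26 (95% interval -0.42 to 0.72; limma adjusted p = 0.868), and the increase of the ratio to day 28, 0.85 ± 0.36, did not pass (limma adjusted p = 0.511). VC arrays of day 28 were lower than those of day 14 by a log2 ratio of -0.66 ± 0.26, which did not pass (limma adjusted p = 0.131). The pools gave -0.06 in ANP and -0.26 in VC at day 1, and -0.49 in ANP and -0.48 in VC at day 7.

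The same window before the start of *Egln3* (RefSeq GRCr8, chr6:77411016-77411265, minus strand, 46.8% G and C) is shown as that of the second gene in order of p at day 28. It holds neither ACGTG nor GCGTG, so that no letter is in capitals.
Egln3: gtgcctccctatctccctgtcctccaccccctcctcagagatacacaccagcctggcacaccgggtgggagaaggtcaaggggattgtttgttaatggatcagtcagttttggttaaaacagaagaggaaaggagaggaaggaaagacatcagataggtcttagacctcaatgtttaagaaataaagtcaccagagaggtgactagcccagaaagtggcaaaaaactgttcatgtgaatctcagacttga
Among the 10 genes, 9 had such a window, taken from 250 bases before to 50 bases after the start. ACGTG or GCGTG, searched on both strands, stood in a window of 5 of them (*Bnip3*, *Ldha*, *Slc2a1*, *Pfkfb3* and *Hk1*) and in none of 4 (*Egln3*, *Adm*, *Hk2* and *Vegfa*). Sequence outside these windows was not searched, so a gene without a match here may hold elements elsewhere. Of 33469 rat promoters of this length 41.6% held one, as did 57.9% of 10164 promoters of tested genes. Shares of promoters here count single windows, whereas the 9 genes had 11 windows and count with a match in any. *Hk1* held a match in 1 window and none in its other. The CACGTG pattern stood in 3 of the 9, *Bnip3*, *Ldha* and *Pfkfb3*, against 6.42% of all promoters and 8.81% of those of tested genes. TGACNNNGC, the core of the antioxidant response element, stood in 0 of the 9, against 12.1% of all promoters. Of the 2 genes that passed at day 28, *Bnip3* had the hypoxia element in this window and *Egln3* did not. *Ldha*, with 6 copies in its window, and *Slc2a1*, with 4, did not pass at day 28.

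Some red cell transcripts rose in the same arrays as *Egln3*. Of 5 measured genes of red cell precursors, 3 rose at day 28, against 4.47% of all genes: *Hbb*, a beta globin (1.91-fold, limma adjusted p = 0.0438), *Alas2*, the haem synthesis enzyme of these cells (3.10-fold, limma adjusted p = 0.0313), and *Ahsp*, the alpha globin chaperone (4.03-fold, limma adjusted p = 0.0379). The other 2 did not pass. The beta globin *Hbb-b1* had a log2 ratio of 1.04 ± 0.29, or 2.06-fold (SE, limma adjusted p = 0.0575). *Slc4a1*, the red cell anion exchanger that collecting ducts also express, had a log2 ratio of 0.25 ± 0.27 (limma adjusted p = 0.596). The summed linear signal of the 5 was 522 to 782 in ANP and 291 to 363 in VC arrays of day 28, and 448 to 568 in ANP and 263 to 557 in VC arrays of day 14. Nearly all of that sum came from the bright *Hbb* and *Hbb-b1* probes. Their mean log2 levels in ANP arrays of day 28 were 8.26 and 8.39, against 2.97 for *Slc4a1*, the next highest. None of the 5 was dim on all arrays. *Alas2* stood at 0.98, 1.97 and 2.64 in ANP and at -0.04, 0.34 and 0.39 in VC arrays of day 28 without overlap, and ANP replicate 1 was the lowest ANP array, as for *Egln3*. For *Ahsp* the lowest ANP array was replicate 2, and *Slc4a1* overlapped between the groups. At day 1 the list had a median log2 ratio of -0.34 in the pools, while *Egln3* was at 0.20. The part of red cell RNA in the *Egln3* result was not tested.

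The genes most like *Egln3* over the 16 arrays, of the 11849 tested, were *Cdc25b*, a cell cycle phosphatase, *Alas2*, and the globin gene *Hbe2*, with Pearson's r of 0.90, 0.90 and 0.88. The correlations also hold the differences between groups, days and slides. Taken as deviations from the group means over 12 arrays, r was 0.81 for *Cdc25b*, 0.76 for *Alas2* and 0.80 for *Hbe2*. The genes were chosen for their r over arrays that include these 12, so these values describe the choice and support nothing further. The genes most like *Bnip3* were *Asns* (asparagine synthetase), *Cct6b* (a chaperonin subunit) and *Atf5* (a stress response transcription factor), each with r of 0.92, and 0.67, 0.74 and 0.80 as deviations. *Asns* stood at 2.09, 2.90 and 3.00 in ANP and at -0.75, -0.86 and -0.82 in VC arrays of day 28. Its ANP replicate 1 was lowest of the ANP arrays, as for *Bnip3*. *Asns* was chosen for its r over these arrays, so the shared order supports nothing further.

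**Figure D2:**
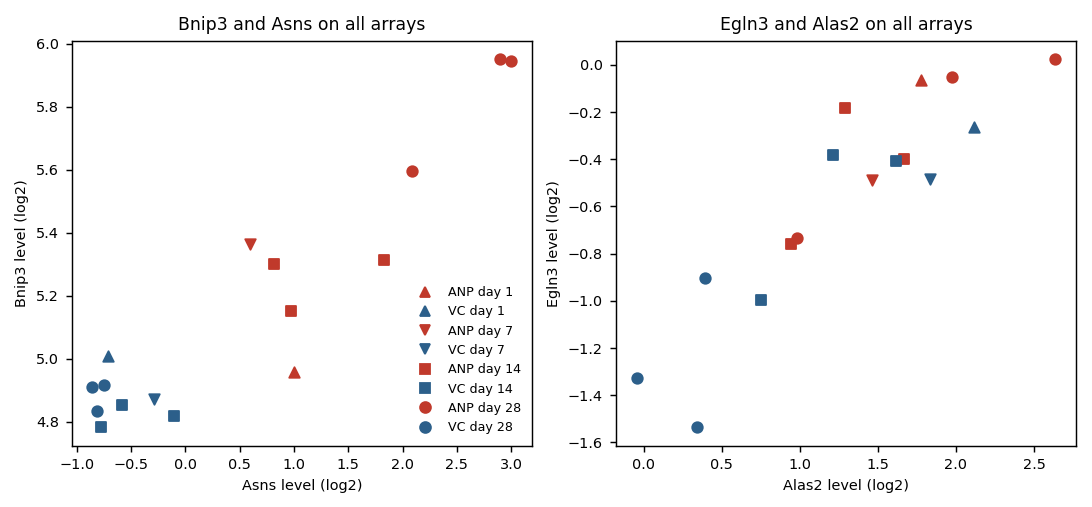
Level of *Bnip3* against *Asns* (left) and of *Egln3* against *Alas2* (right) on the 16 arrays, log2 on both axes, ANP in red and VC in blue, with a symbol per day. *Bnip3* and *Asns* are both highest in the ANP arrays of day 28, whereas *Egln3* and *Alas2* both have their lowest group value in VC at day 28; the correlations are 0.92 and 0.90.

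*Adm* encodes adrenomedullin, a peptide that widens vessels and promotes sodium excretion, and is raised by HIF and by inflammatory signals. In the pools it stood at 3.68 in ANP and 1.95 in VC at day 1, and at 1.95 in ANP and 1.43 in VC at day 7. The ratio was 3.32-fold at day 1, higher than in 97.8% of genes, and 1.43-fold at day 7, higher than in 93.5%. The ANP pool of day 1 held the highest *Adm* level of the 16 arrays, and at day 7 the ANP pool was as high as the VC pool of day 1.

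At day 28 *Adm* stood at 1.65, 2.05 and 2.10 in ANP arrays, against 2.53, 2.30 and 2.28 in VC arrays. Day 14 levels were 1.10, 1.41 and 1.05 in ANP arrays and 1.39, 0.92 and 0.93 in VC arrays. All ANP animals of day 28 lay below all VC animals, the opposite direction to the pools, and the groups of day 14 overlapped. The log2 ratio was -0.44 ± 0.17 at day 28 (SE; 95% interval -0.81 to -0.07; limma adjusted p = 0.131) and 0.11 ± 0.17 at day 14 (95% interval -0.26 to 0.48; limma adjusted p = 0.847), and neither passed. The change of the ratio between the days, -0.54 ± 0.24, did not pass (limma adjusted p = 0.529).

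The largest tested difference in *Adm* lay between the VC groups. It averaged 2.37 ± 0.14 in VC arrays of day 28 and 1.08 ± 0.27 in those of day 14 (SD, n = 3 each), 2.44-fold higher at day 28 (log2 ratio 1.29 ± 0.17; limma adjusted p = 0.0031). ANP arrays averaged 1.93 ± 0.25 at day 28 and 1.19 ± 0.19 at day 14. Between VC groups 2 of the 10 genes passed, against 11.2% of all genes, the other being *Slc2a1*, and 3 did not overlap (*Adm*, *Slc2a1* and *Vegfa*), against 34.7% of all genes. The glomerular and convoluted tubule sums given above were also higher in the VC arrays of day 28. Day and slide differ together between these groups and cannot be told apart.

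The window before the start of *Adm* (RefSeq GRCr8, chr1:174179950-174180199, plus strand, 58.8% G and C), shown as that of the third gene in order of p at day 28, holds neither core element.
Adm: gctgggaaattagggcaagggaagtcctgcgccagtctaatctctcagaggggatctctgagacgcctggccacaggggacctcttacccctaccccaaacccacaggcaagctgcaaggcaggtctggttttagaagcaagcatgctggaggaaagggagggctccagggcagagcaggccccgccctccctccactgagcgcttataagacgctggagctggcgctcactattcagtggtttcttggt

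*Vegfa*, the growth factor of endothelial cells, had levels of 3.54, 3.95 and 4.12 in ANP and 4.09, 4.01 and 4.0 in VC arrays at day 28. The ANP arrays spread around the tight VC arrays, with ANP replicate 1 lowest. The log2 ratio was -0.17 ± 0.14 (SE; 95% interval -0.47 to 0.14; limma adjusted p = 0.473), and it was 9.81e-05 without ANP replicate 1. The day 14 ratio was -0.11 ± 0.14 (95% interval -0.41 to 0.19; limma adjusted p = 0.806), and in the pools -0.22 at day 1 and -0.11 at day 7. Of the 6 *Vegfa* probes, which share one gene and are no replicates, all were below 0 at both days, from -0.48 to -0.15 at day 28 and from -0.23 to -0.05 at day 14. None passed in the fit of every probe, the nearest at -0.48 ± 0.16 (limma adjusted p = 0.0913). At day 1 the 6 probes disagreed in sign, from -0.22 to 0.17.

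Of 8 adrenomedullin and VEGF receptor genes tested, 0 rose and 1 fell at day 28 (limma), against 7.11% of all genes that passed, and 3 had an unadjusted p under 0.05, against 26.3% of all genes. Their median log2 ratio was -0.22. The gene that fell was *Kdr*, the main signalling receptor for VEGF on endothelial cells, at -0.52 ± 0.10 (1.43-fold lower; SE; limma adjusted p = 0.0148). *Calcrl*, the receptor that binds adrenomedullin, was at -0.52 ± 0.17 (limma adjusted p = 0.0916). Its partner *Ramp2* was at 0.20 ± 0.10 (limma adjusted p = 0.210). *Flt1*, the other VEGF receptor, was at -0.08 ± 0.11 (limma adjusted p = 0.714). *Kdr* was the only one of 7 endothelial markers to pass at day 28, and their summed linear signal was 68.2 to 72.8 in ANP and 59.1 to 76.1 in VC arrays. In the same arrays 2 of 6 glomerular genes, *Podxl* and *Ptpro*, and 3 of 9 collecting duct markers fell, against 2.63% of all genes. The part of cell types in the *Kdr* value was not tested.

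**Figure D3:**
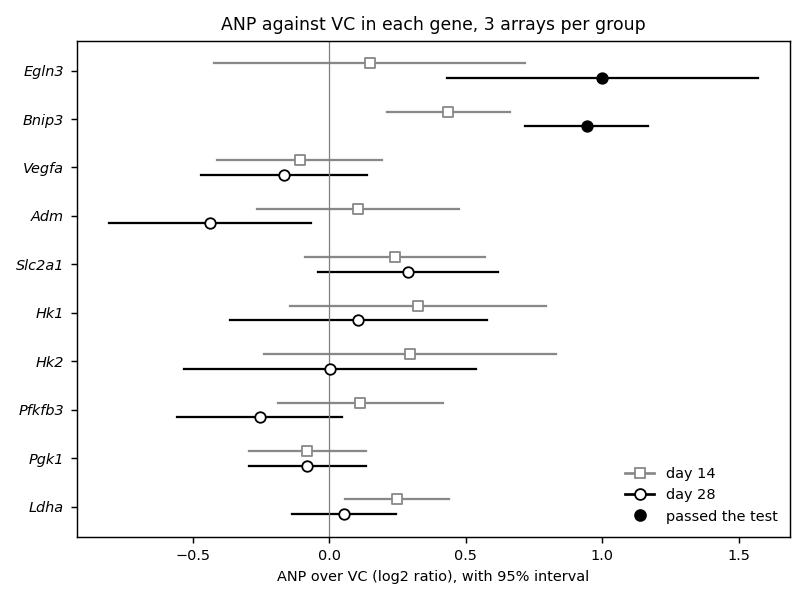
Log2 ratio of ANP over VC for each of the 10 genes at day 14 (grey squares) and day 28 (black circles), with 95% intervals; filled symbols passed the test. *Egln3* at 1.00 and *Bnip3* at 0.94, both at day 28, are the filled symbols, and the intervals of the glycolysis genes include 0 at day 28.

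The glucose transporter and the glycolysis enzymes gave small ratios at days 14 and 28. *Slc2a1* encodes GLUT1, a carrier through which many cells take up glucose. Its level at day 28 was 2.31, 2.65 and 2.78 in ANP and 2.17, 2.20 and 2.50 in VC arrays. The day 14 arrays stood at 3.01, 3.19 and 2.98 in ANP and 2.63, 2.80 and 3.03 in VC arrays. ANP was the higher mean on both days, with overlap on each. Its log2 ratio was 0.29 ± 0.15 at day 28 (SE; 95% interval -0.04 to 0.62; limma adjusted p = 0.242) and 0.24 ± 0.15 at day 14 (95% interval -0.09 to 0.57; limma adjusted p = 0.535), and 0.27 ± 0.11 over both days (limma adjusted p = 0.133). VC animals of day 28 had 1.44-fold less *Slc2a1* than those of day 14 (log2 ratio -0.53 ± 0.15; limma adjusted p = 0.0466). That call was lost without VC replicate 2 (limma adjusted p = 0.111) or 3 (0.158) of day 14, or without VC replicate 1 (0.154) or 2 (0.150) of day 28. The pools gave 0.39 at day 1 and -0.24 at day 7.

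Hexokinases trap glucose in the cell as glucose phosphate. *Hk1*, the housekeeping form, stood at 2.26, 2.47 and 2.66 in ANP and 2.28, 2.17 and 2.62 in VC arrays at day 28. The day 14 levels were 2.96, 3.13 and 3.18 in ANP and 2.60, 2.41 and 3.29 in VC arrays. The groups overlapped on both days, and VC replicate 3 of day 14 held the highest *Hk1* level of the 16 arrays. The log2 ratio was 0.11 ± 0.21 at day 28 (95% interval -0.36 to 0.58; limma adjusted p = 0.790) and 0.33 ± 0.21 at day 14 (95% interval -0.14 to 0.79; limma adjusted p = 0.562). The second *Hk1* probe gave 0.44 ± 0.23 at day 28 and 0.41 ± 0.23 at day 14.

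*Hk2*, the inducible hexokinase and a HIF target, was dim here. Its used probe was well above background on every array but VC replicate 1 of day 14. The ANP pool of day 1 stood at -3.05, the highest of the 16 arrays, against -4.15 in the VC pool. That 2.13-fold ratio was higher than in 95.8% of genes, though with normexp background correction the log2 ratio was 0.56 in place of 1.09. The second probe was well above background in the ANP pool of that day and in the VC pool was not. At day 7 the log2 ratio was 0.09, at day 14 0.30 ± 0.24 (SE; 95% interval -0.24 to 0.83; limma adjusted p = 0.665), and at day 28 0.003 ± 0.24 (95% interval -0.53 to 0.54; limma adjusted p = 0.996). ANP arrays ran from -4.56 to -4.44 and VC arrays from -4.64 to -4.23 at day 28, with full overlap.

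*Pfkfb3* makes fructose bisphosphate that speeds phosphofructokinase, and HIF raises it in many cells. Its level at day 28 was -3.83, -3.20 and -3.46 in ANP and -3.21, -3.34 and -3.18 in VC arrays. Replicate 1 was the lowest ANP array, and the groups overlapped. ANP over VC gave a log2 ratio of -0.25 ± 0.14 at day 28 (SE; 95% interval -0.56 to 0.05; limma adjusted p = 0.261) and 0.11 ± 0.14 at day 14 (95% interval -0.19 to 0.42; limma adjusted p = 0.795), with 0.04 at day 1 and 0.27 at day 7. Both of its other probes were too dim for the fit, as was the second probe of *Hk2*, so that 19 of the 22 probes were tested.

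*Pgk1* encodes the kinase that makes ATP from bisphosphoglycerate in the lower part of glycolysis. ANP arrays ran from 6.99 to 7.11 and VC arrays from 7.07 to 7.21 at day 28, and ANP arrays from 6.70 to 6.94 and VC arrays from 6.82 to 7.08 at day 14. The log2 ratio was -0.08 ± 0.10 on both days (95% interval -0.30 to 0.13 at day 28 and -0.29 to 0.13 at day 14; limma adjusted p = 0.634 and 0.796). The pools gave 0.20 at day 1 and 0.08 at day 7.

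*Ldha* encodes the lactate dehydrogenase subunit that favours making lactate from pyruvate. Its level was 6.46 in the ANP and 5.82 in the VC pool of day 1, and 5.86 in the ANP and 5.48 in the VC pool of day 7. At day 14 it was 5.75, 5.94 and 5.85 in ANP and 5.71, 5.49 and 5.60 in VC arrays. At day 28 it was 5.86, 5.75 and 5.70 in ANP and 5.76, 5.72 and 5.66 in VC arrays. ANP lay above VC in both pools and in all arrays of day 14, and the groups overlapped at day 28. The ratio was 1.56-fold at day 1 and 1.30-fold at day 7. Relative to VC the log2 ratio was 0.25 ± 0.09 at day 14 (SE; 95% interval 0.06 to 0.44; limma adjusted p = 0.243) and 0.05 ± 0.09 at day 28 (95% interval -0.14 to 0.25; limma adjusted p = 0.732). Its second probe gave 0.69 at day 1, 0.23 at day 7, 0.25 ± 0.10 at day 14 and 0.18 ± 0.10 at day 28.

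The genes past 2-fold at day 1 were other than those that passed at day 28. Of the 10 genes, 2 were at least 2-fold higher in the ANP pool of day 1, *Adm* and *Hk2*, against 9.79% of 12415 genes past 2-fold in either direction and 4.82% higher. With normexp background correction *Hk2* was below 2-fold there. The median log2 ratio of the 10 was 0.23 and that of all genes -0.04, with 8 of 10 above 0. At day 7, 0 of the 10 were past 2-fold, against 4.65% of 12123 genes, and the median was 0.08 beside 0.04 for all genes. *Bnip3* and *Egln3*, which passed at day 28, had ratios of -0.05 and 0.20 at day 1. No difference between the pools of different days was tested.

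**Figure D4:**
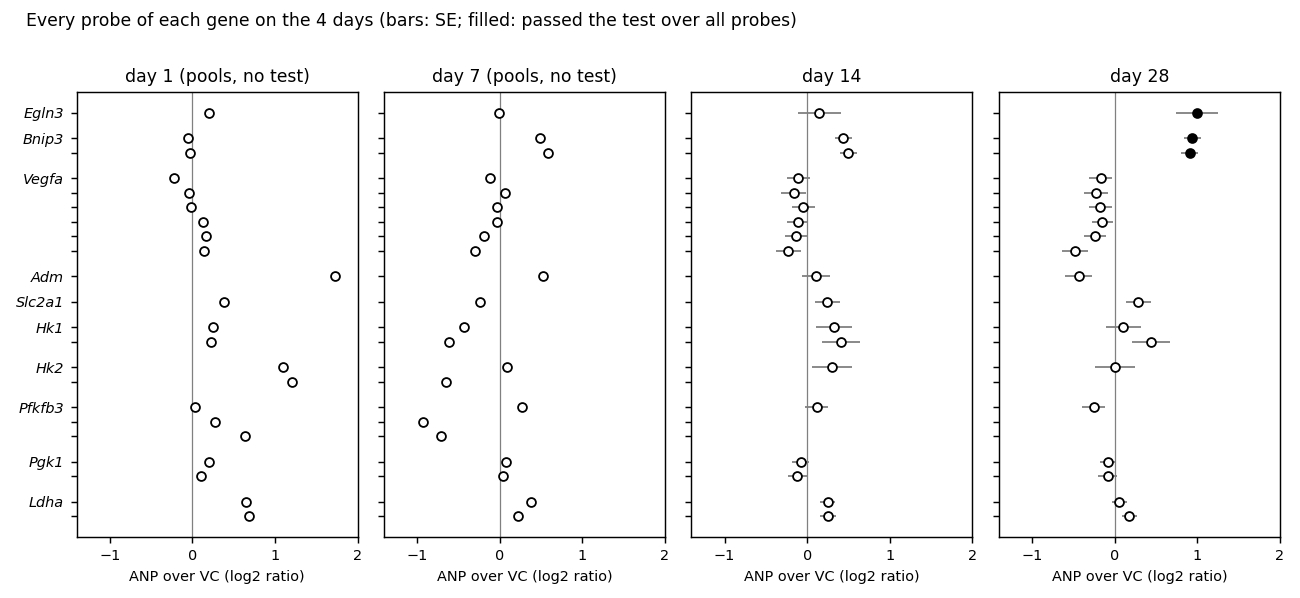
Log2 ratio of ANP over VC for each of the 22 probes of the 10 genes at days 1 and 7 (pools, no test) and at days 14 and 28 (19 probes, bars are SE), grouped by gene; filled points passed in the fit of every probe. The *Adm* probe at 1.73 and both *Hk2* probes stand to the right at day 1, and at day 28 both *Bnip3* probes and the *Egln3* probe are filled.

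Some members varied together over the 16 arrays, given as a description of arrays that share groups, days and slides. *Slc2a1* and *Hk1* correlated at r = 0.89, *Egln3* and *Slc2a1* at 0.74, *Hk2* and *Ldha* at 0.73, and *Adm* and *Ldha* at 0.67. *Pgk1* ran against *Slc2a1* (-0.80) and *Hk1* (-0.74). *Bnip3* correlated with no other member above 0.46, its value with *Egln3*. Within the ANP group of day 28, replicate 1 was the lowest array for 7 of the 10 genes, *Egln3*, *Bnip3*, *Vegfa*, *Adm*, *Slc2a1*, *Hk1* and *Pfkfb3*. The share of all genes with replicate 1 lowest was not counted, so this is not shown to be particular to the 10.

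The wider pathway was read from 5 lists with 87 genes other than the 10. Of 80 that were tested, 4 rose and 3 fell at day 28, 8.75% against 7.11% of all genes. At day 14, 0 of the 80 passed (limma) and 18 had an unadjusted p under 0.05, against 13.4% of all genes. At day 28, 21 of the 80 had one, against 26.3% of all genes. The median log2 ratio of the 80 was -0.02 at both days. The share that passed was near that of all genes.

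Among 8 tested regulators of HIF, 1 rose and none fell at day 28 (median log2 ratio -0.01). *Hif1an*, the asparagine hydroxylase that blocks HIF from its coactivators, rose 1.41-fold, by 0.50 ± 0.11 (SE; limma adjusted p = 0.0290), with 0.37 ± 0.11 at day 14 and 0.53 and 0.57 in the pools of days 1 and 7. The HIF alpha genes *Hif1a* (-0.01 ± 0.10) and *Epas1* (-0.12 ± 0.12) did not pass at day 28 (limma adjusted p = 0.976 and 0.526). HIF alpha is regulated mainly as a protein, which these arrays do not measure.

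Of 24 other HIF target genes, 1 rose and 1 fell at day 28 (median -0.03). *Tfrc*, the transferrin receptor, which is abundant in red cell precursors, rose 1.33-fold (limma adjusted p = 0.0463), and *Kdr*, described above, fell. *Pdk1*, a kinase that keeps pyruvate from mitochondria, was at a log2 ratio of 0.19 ± 0.13 (limma adjusted p = 0.389). *Bnip3l*, the close relative of *Bnip3*, was at -0.16 ± 0.07 (limma adjusted p = 0.207). At day 1 the median of 25 such genes was -0.07, and 4 of the 25 lay past 2-fold, 3 of them higher in ANP, against 9.79% of all genes past it in either direction and 4.82% higher. Of the 3, *Edn1* (endothelin) was at a log2 ratio of 1.92 and *P4ha1* (a collagen prolyl hydroxylase) at 1.05.

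Of 34 other genes of glycolysis and lactate transport, 1 rose and 2 fell at day 28 (median 0.01). *Bpgm*, which makes the bisphosphoglycerate of red cells, rose 1.49-fold (limma adjusted p = 0.0172). *Pklr*, the pyruvate kinase of liver, proximal tubule and red cells, fell 1.80-fold (limma adjusted p = 0.0451), with -1.55 at day 1, -0.91 at day 7 and -1.04 ± 0.22 at day 14 (limma adjusted p = 0.0762). *Slc16a1*, a lactate and pyruvate carrier, fell 2.99-fold (log2 ratio -1.58 ± 0.38, SE; limma adjusted p = 0.0380). The classical enzymes *Gapdh* (log2 ratio 0.03 ± 0.10), *Eno1* (-0.05 ± 0.15) and *Aldoa* (0.28 ± 0.09) did not pass at day 28 (limma adjusted p = 0.878, 0.869 and 0.0858). *Bpgm*, *Tfrc* and *Pklr* are known to be expressed in red cells or their precursors; 3 markers of these cells rose in the same arrays, as *Bpgm* and *Tfrc* did, while *Pklr* fell. The part of red cell RNA in these values was not tested.

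Of 8 genes of glucose production and fructose use, 1 rose and none fell at day 28 (median -0.05). *Pck2*, the mitochondrial phosphoenolpyruvate carboxykinase, rose 1.72-fold, by 0.78 ± 0.10 (SE; limma adjusted p = 0.0047). Its cytosolic counterpart *Pck1* was at -0.73 ± 0.36 (limma adjusted p = 0.230), and *G6pc1*, which releases free glucose, at -0.79 ± 0.38 (limma adjusted p = 0.215). At day 1 all 8 were lower in the ANP pool, with a median of -0.69. The 10 straight proximal tubule markers were lower there too, with a median of -1.01 and a summed linear signal of 927 in the ANP and 1523 in the VC pool. The part of these cells in the ratios of day 1 was not tested.

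**Figure D5:**
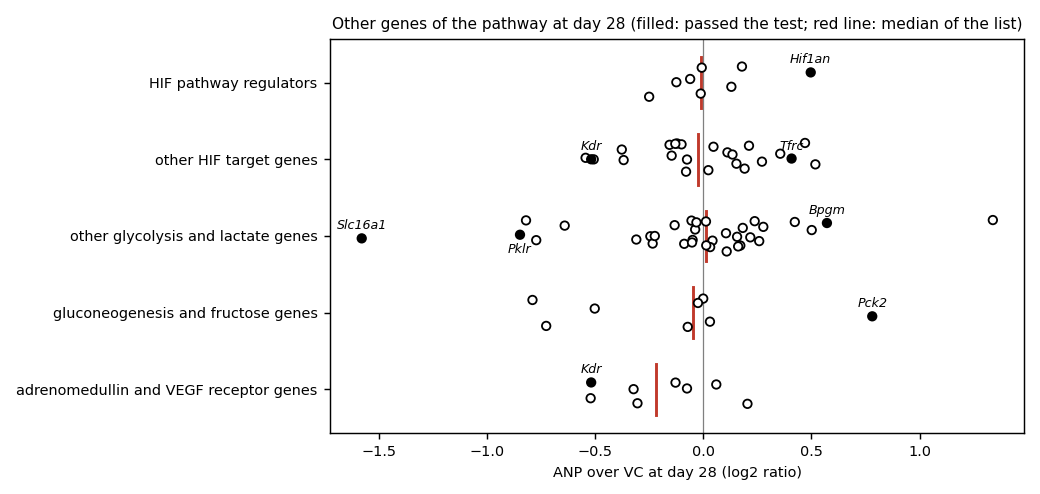
Log2 ratio of ANP over VC at day 28 for the tested genes of 5 lists of the hypoxia and glucose pathways, each circle a gene (*Kdr* and *Flt1* are in 2 lists); filled and named genes passed the test, and red lines are list medians, from -0.22 to 0.01. Circles scatter on both sides of 0 in each list, with *Slc16a1* lowest at -1.58.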

How the data were processed

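RNA of 16 outer medulla samples was measured on 1-colour Agilent arrays. Feature extraction used Agilent Feature Extraction 10.7, as the submitters' processing notes name it. Each deposited scanner file holds the authors' processed signal intensity, their median spot and background intensity, and other marks of spot quality, per the file headers. The deposited value table holds a ratio, the processed signal over the 75th percentile of its array, as a comparison with the scanner files showed (r of log2 values at least 0.9999).

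From the deposited intensity, log2 values minus the 75th percentile were taken over 61657 probes. An array had 0 to 9 outlier spots, which were dropped, and 0 saturated ones. RefSeq accessions, without version, named 27460 probes through a GRCr8 table, and 34197 stayed unnamed. The probe with the highest mean over 12 arrays stood for a gene, provided that in 1 or more groups every array had it well above background. limma 3.58.1 in R 4.3.3 modelled 12 arrays (days 14 and 28) with a mean for each group, without batch terms, and p-values were two-sided and adjusted by Benjamini-Hochberg over 11849 genes at 0.05. Errors are SE of the model unless named SD. Folds are 2 to the power of the log2 ratio. Pools were compared over genes well above background in at least 1 pool.

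The 10 genes and the lists were chosen with earlier results of these data known. Named are all 10, genes of the pathway lists that passed, other list genes as examples (1 list gene is not reported here), and for each of the 10 that passed at day 28 the 3 genes with the highest r. Promoters and motifs are from RefSeq windows of GRCr8; 1 of the 10 genes had none. The fit was tested on simulated data. Alternatives were other scalings, normexp (offset 50, on the median signal) with quantile normalization, the authors' table, other filters, averaging the probes of a gene, fitting 6 arrays alone, replicate and slide blocks, and leaving out each array.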

Additional observations from a re-analysis of the deposited data

How the results depend on the processing

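Of 733 values recomputed under the alternatives, 680 kept their direction and side of the threshold, or stayed within the spread of replicates or 1.5 times the count, and 25 turned sign. *Bnip3* passed at day 28 in all 17 alternatives, with log2 ratios from 0.82 to 1.06 (limma adjusted p from 0.000545 to 0.0310), and at day 14 in none of 18 (limma adjusted p from 0.0649 to 0.634). *Egln3* at day 28 kept a log2 ratio of 1.00 but missed the threshold without a filter on dim probes (limma adjusted p = 0.0559) and with only the 6 arrays of the day (0.0806). Leaving out 1 array gave 0.86 to 1.24. The number of the 10 genes that passed at day 28 fell to 1 under these settings and ran from 1 to 2 when an array was left out. *Slc2a1* between VC groups, a comparison whose alternatives were chosen after seeing the data, was -0.57 with quantile normalization and -0.53 with normexp (limma adjusted p = 0.0547 and 0.0583), and -0.63 to -0.42 when an array was left out. *Adm* there passed in all 11 (1.21 to 1.44). The mean effect of both days passed for *Egln3* when arrays were scaled to their median (0.61, limma adjusted p = 0.0488) or with the replicate block (0.57, 0.0437). Causes were not tested. In the pools the mean over probes gave 0.025 for *Vegfa* at day 1 and -0.33 for *Pfkfb3* at day 7, and quantile normalization and normexp gave -0.040 and -0.069 for *Pgk1* at day 7.

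Tested ratios that turned sign did not pass in either setting. With slide as a fixed block at day 14, which leaves ANP replicate 1 against 3 VC arrays, they were -0.16 for *Egln3*, -0.12 for *Hk2* and 0.026 for *Pgk1*, and *Bnip3* was 0.48 there. Normexp gave -0.0011 for *Pfkfb3* at day 14 and -0.041 for *Ldha* at day 28, and quantile normalization -0.058 for *Ldha* at day 28 and -0.0060 for the day difference of *Slc2a1*. *Hk2* at day 28 was -0.00091 in the authors' table and -0.036 with slide as a random block. The day difference of *Pgk1* was 0.043 under median scaling, 0.017 over the mean of probes and 0.022 with the random block. Between VC groups, quantile normalization and normexp gave -0.045 and -0.074 for *Bnip3* and -0.013 and -0.018 for *Ldha*, and leaving out 1 array -0.12 to 0.32 for *Hk2*. Leaving out 1 array gave -0.053 to 0.30 for *Egln3*, -0.0057 to 0.26 for *Adm* and -0.13 to 0.0046 for *Pgk1* at day 14, and -0.29 to 9.81e-05 for *Vegfa* and -0.074 to 0.13 for *Hk2* at day 28.

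The replicate numbers are not shown to pair animals. Deviations of ANP and VC arrays with the same number correlated at 0.13, 0.07 and 0.14 at day 14 and at -0.07, -0.05 and 0.11 at day 28. Arrays with unlike numbers gave -0.18 to 0.05 at day 14 and -0.12 to 0.16 at day 28. The same-number values were thus the higher ones at day 14 only, and a pairing was not settled. With the replicate block *Bnip3* at day 28 stayed at 0.94 (limma adjusted p = 0.0219) and *Egln3* at 1.00 (0.0378), and the counts over all genes were 3 higher and 4 lower at day 14 and 287 and 211 at day 28, against 43 and 14, and 530 and 312, without it. Those counts were 14 and 8, and 216 and 215, with only the arrays of the day, 88 and 45, and 1098 and 759, with the random slide block, 69 and 50 at day 14 with normexp, and 21 and 7 at day 14 without the filter. With the fixed slide block they were 0 and 0 at day 14. Median scaling gave 773 and 244 at day 28. The mean effect counted 460 and 339 with the replicate block, against 728 and 478. Leaving out 1 array gave as few as 0 and 1 at day 14 (without ANP replicate 3), 149 and 62 at day 28 (without VC replicate 2) and 302 and 128 between VC groups (without VC day 28 replicate 2, against 831 and 494), where the random slide block gave 1261 and 941. Dim probes limit *Hk2* and *Pfkfb3*, and 3 arrays per group limit all ratios.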
